A study of Homo sapiens with 9 samples.

Results

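The nuclear pore genes were the 31 rows of the gene table whose names match a list of nucleoporins and pore-associated factors, out of 62666 genes in all. They were read in 3 human mammary epithelial cell lines of a single lineage, with 3 RNA libraries per line and 9 in all. MCF10A does not form tumours. MCF10AT1 came from it by transformation with an activated HRAS gene and serves as a model of early, premalignant disease, while MCF10Ca1a gives rise to carcinomas in mice. Each stage is represented by a single line, so line and stage cannot be told apart. All lines were kept in DMEM/F12 with insulin, epidermal growth factor, hydrocortisone and cholera toxin. Horse serum was at 2.5% for MCF10AT1 and 5% for MCF10A and MCF10Ca1a, so serum and line cannot be told apart in comparisons with MCF10AT1. The stated purpose was to follow expression along the progression of breast cancer. The labels do not say whether the libraries of a line came from separate cultures, and p-values then measure the spread between these libraries only.

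The nuclear pore complex is a channel through the nuclear envelope that carries all exchange of protein and RNA between nucleus and cytoplasm. Y complexes form its outer rings, an inner ring lines the membrane pore, a membrane ring anchors it, and proteins with phenylalanine-glycine repeats fill the central channel. Filaments on the cytoplasmic face remodel messenger ribonucleoproteins as they leave, and a basket on the nuclear side touches chromatin. Pores are built both when the envelope re-forms after mitosis and during interphase, so pore assembly is tied to cell division. By role the 31 genes fell into 9 of the Y complex, 5 of the inner ring, 3 of the central channel, 4 of the membrane ring, 7 of the cytoplasmic face and 3 of the nuclear basket.

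Libraries held between 32.9 M and 69.5 M estimated counts (M for mega), and those of MCF10Ca1a, at 32.9 M to 35.2 M, were the shallowest. The lowest value of any member was 440 counts, for NUP35 in an MCF10Ca1a library, and all 31 members passed the filter on low counts. Of 10 epithelial markers, 9 in MCF10A, 9 in MCF10AT1 and 10 in MCF10Ca1a reached 1 TPM (transcript abundance per length, scaled to the same sum in every library). The exception in the first 2 lines was KRT19. Of 10 markers of fibroblasts, immune cells and endothelium, COL1A2, PTPRC, CD3E, VWF and CDH5 were at or under 3 counts in every library, and the summed level of the list ran from 15.3 to 20.8 TPM in MCF10A, 31 to 35.1 TPM in MCF10AT1 and 47.8 to 55.1 TPM in MCF10Ca1a. DCN in MCF10AT1 (27.9 TPM) and CD68 and PECAM1 in MCF10Ca1a (31.1 and 18.7 TPM) made up most of it, and the part of this signal in the results was not tested. The libraries of MCF10A differed most among themselves. Replicate 1 was the highest of the 3 for 22 members and the lowest for 8, and replicate 3 was the highest for 8 and the lowest for 22. The median coefficient of variation of a member was 6.81% in MCF10A, 4.05% in MCF10AT1 and 2.60% in MCF10Ca1a.

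Promoter windows, from 250 bases before to 50 bases after a transcription start, were available in RefSeq (GRCh38.p14) for 28 of the 31 genes, 36 windows in all. The 3 printed here belong to the inner ring genes that differed most in opposite directions, NUP155 (higher in MCF10Ca1a) and NUP35 (lower), and to NUP37, the Y complex gene with the largest log2 change between lines on counts. Each is written 5′ to 3′ on the gene's own strand, and capitals mark motif matches on either strand.
NUP155 (chr5:37371057-37371356, minus strand): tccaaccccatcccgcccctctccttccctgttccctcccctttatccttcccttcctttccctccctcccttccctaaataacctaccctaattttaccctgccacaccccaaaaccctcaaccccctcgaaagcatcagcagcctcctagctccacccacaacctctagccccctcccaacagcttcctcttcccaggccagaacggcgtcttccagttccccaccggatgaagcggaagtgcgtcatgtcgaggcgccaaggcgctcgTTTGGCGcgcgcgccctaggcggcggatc
NUP35 (chr2:183124193-183124492, plus strand): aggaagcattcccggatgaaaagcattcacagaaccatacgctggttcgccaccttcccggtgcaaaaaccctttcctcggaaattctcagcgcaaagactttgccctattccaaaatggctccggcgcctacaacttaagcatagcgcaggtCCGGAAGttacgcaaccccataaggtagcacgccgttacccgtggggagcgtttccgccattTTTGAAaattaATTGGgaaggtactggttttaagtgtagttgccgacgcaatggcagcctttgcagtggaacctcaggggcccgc
NUP37 (chr12:102120065-102120364, minus strand): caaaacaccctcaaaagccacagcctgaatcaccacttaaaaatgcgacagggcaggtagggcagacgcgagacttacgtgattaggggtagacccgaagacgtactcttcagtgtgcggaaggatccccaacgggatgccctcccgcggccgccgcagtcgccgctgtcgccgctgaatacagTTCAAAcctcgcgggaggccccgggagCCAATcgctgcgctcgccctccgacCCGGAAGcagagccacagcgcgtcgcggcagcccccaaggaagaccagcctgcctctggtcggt
The window of NUP155 holds TTTGGCG, the core of an E2F site, whereas those of NUP35 and NUP37 each hold CCGGAAG (the core of an ETS site), CCAAT (the NFY box) and TTTGAA (the CHR element of cell cycle genes), in either orientation. The 6 motifs searched were these 4, TGCGCA (the repeated unit of an NRF1 site) and TATAAA (the TATA box), on both strands, and none overlaps another in the printed windows. CCGGAAG was found in 38.9% of the 36 member windows and in 10.3% of all 35116 windows of the same length. TTTGGCG was found in 11.1% against 1.92%, TTTGAA in 27.8% against 15.2%, CCAAT in 36.1% against 34.6%, TGCGCA in 8.33% against 8.24% and TATAAA in 2.78% against 11.5%. The median GC content was 63.7% in the member windows and 58.7% in all windows, so GC-rich words meet a richer background there. The 8 members with TTTGAA in a window had a median log2 change of -0.90 in MCF10Ca1a against MCF10A, with 6 lower and 0 higher, and the 20 matched members without it had a median of -0.24, with 12 lower and 7 higher. Among all genes 41.9% were lower and 39.0% higher there. A gene counted as having a motif if any of its windows held it, and for NUP93 and NUP50 not every window held TTTGAA. Split in the same comparison by the other 3 motifs of the printed windows, the medians were -0.72 with CCAAT and -0.24 without, -0.45 with CCGGAAG and -0.24 without, and -0.13 with TTTGGCG (4 members) and -0.57 without. The splits were made after the values were seen and were not tested.

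More pore genes were lower than higher in MCF10Ca1a against MCF10A. In that comparison 19 of the 31 members were called lower and 8 higher, and 4 did not pass the test (edgeR quasi-likelihood test, adjusted p under 0.05 over 17910 genes). Their median log2 change was -0.41, against -0.05 for all genes tested, and -0.24 without AHCTF1, NUP133 and TPR, which lie on chromosome arm 1q among genes that were lower as well. All 21 genes of a proliferation list were lower in the same comparison, with a median of -2.23, and their part in the result was not tested. Of all genes tested, 80.9% were called, 41.9% lower and 39.0% higher, so a call alone says little here, and the members' 61.3% lower stands against that 41.9%. A change of 2-fold or more was called for 8 members (25.8%), against 42.9% of all genes, which were not matched to the members in level. Those 8 were NUP35, NUP50, NDC1, NUP133, NUP54 and NUP88, which were lower, and NUP210 and NUP155, which were higher. The count was 5 on log2(TPM + 1), against 24.8% of all genes: NUP35, NUP133, NUP210 and NUP155 of the 8, and NUP214, which was higher.

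Between MCF10AT1 and MCF10A, 14 members were called lower and 6 higher, with a median log2 change of -0.089 beside -0.0038 for all genes. That median was -0.20 on log2(TPM + 1), and -0.021 without the 4 members that share a large part of their sequence with other genes (AHCTF1, POM121, POM121C and RANBP2). The background was 61.6% of all genes called, 31.8% lower and 29.8% higher. Changes of 2-fold or more were called for 3 members, AHCTF1, NUP133 and NUP210, or 9.68% against 18.0% of all genes. For log2(TPM + 1) they were AHCTF1, NUP133 and TPR, all lower, where 6.63% of all genes reached 2-fold. Between MCF10Ca1a and MCF10AT1, 11 members were called higher and 14 lower, with a median of -0.079 beside -0.044 for all genes. Of all genes 78.4% were called there, 38.0% higher and 40.3% lower, so the members' split lay near the background. The 6 members at 2-fold or more (19.4%, against 37.7% of all genes) were NUP155, which was higher, and NUP37, NUP35, NUP88, AAAS and NUP54, which were lower. For log2(TPM + 1) they were NUP155 and AHCTF1, which were higher, and NUP37 and NUP35, which were lower, where 21.1% of all genes reached 2-fold. The 3 comparisons share libraries and are not independent of each other.

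The split depends on the scale. On log2(TPM + 1) limma called 3 members higher and 17 lower in MCF10AT1 against MCF10A, 8 and 16 in MCF10Ca1a against MCF10A, and 14 and 10 in MCF10Ca1a against MCF10AT1. This scale divides by the transcript length in use, and it also lacks the scaling between libraries of the edgeR fit. The part of each in these counts was not tested. The median of all genes itself moved on this scale, to -0.070, 0.063 and 0.13, and 36.2%, 55.0% and 61.6% of all calls were higher, against 48.4%, 48.2% and 48.5% on counts. Relative to all genes the members' medians on log2(TPM + 1) were -0.13, -0.36 and 0.082. The lower level in MCF10Ca1a than in MCF10A thus stood on both scales, and the sign of the median between MCF10Ca1a and MCF10AT1 did not.

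**Figure D1:**
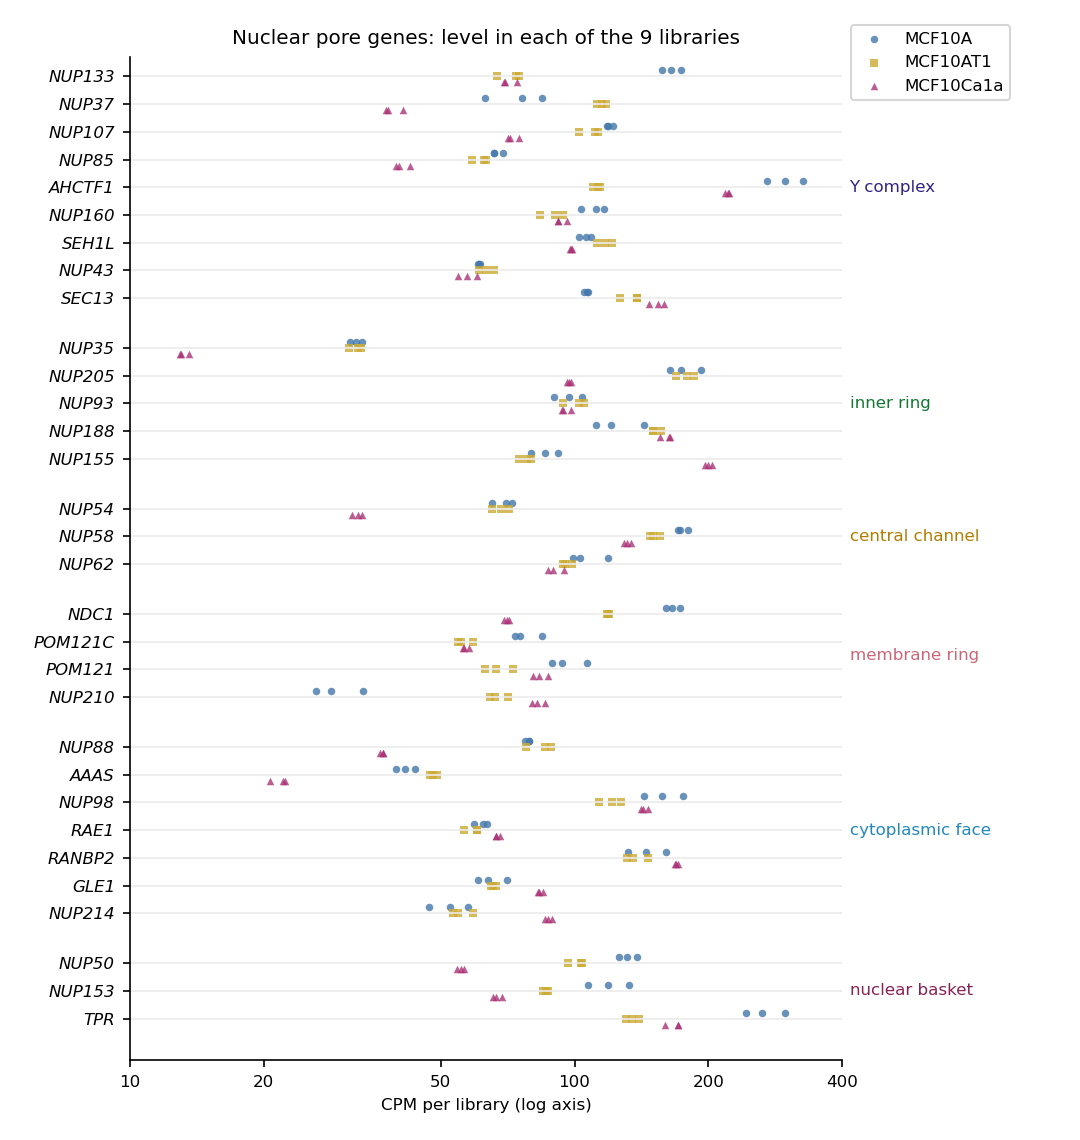
Level of each nuclear pore gene in each of the 9 libraries, in CPM (estimated counts scaled to a common library size, log axis), by structural role; circles are MCF10A, squares MCF10AT1 and triangles MCF10Ca1a. NUP35 falls from 31.3 to 33.3 CPM in MCF10A to 13 to 13.6 CPM in MCF10Ca1a, and NUP155 lies highest in MCF10Ca1a, at 196 to 204 CPM.

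The 9 genes of the Y complex, the scaffold of the outer rings, did not move as a unit. In MCF10Ca1a against MCF10A 6 were lower, SEC13 was higher, and SEH1L and NUP43 did not pass the test, with a median log2 change of -0.43. The 66.7% lower stands beside 41.9% of all genes. NUP133 (ENSG00000069248.12, chr1:229440260-229508341, minus strand), a membrane-sensing scaffold subunit at the tip of the Y, had 173, 165 and 157 CPM in MCF10A, 73.8, 75 and 66.9 CPM in MCF10AT1 and 69.6, 74.3 and 69.7 CPM in MCF10Ca1a. All MCF10A libraries lay far above those of the other lines, which overlapped each other. Its log2 change was -1.20 (SE 0.0591, adjusted p 8.51e-10) in MCF10AT1 and -1.21 (SE 0.0599, adjusted p 2.08e-10) in MCF10Ca1a, each relative to MCF10A. Between MCF10Ca1a and MCF10AT1 it was -0.014 (SE 0.0598, adjusted p 0.839) on counts, while on log2(TPM + 1) it was 0.41 with a limma adjusted p of 0.0364.

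AHCTF1, also called ELYS (ENSG00000153207.16, chr1:246839098-246931967, minus strand), binds chromatin and recruits Y complexes to it after mitosis. It had 326, 297 and 271 CPM in MCF10A, 114, 113 and 110 CPM in MCF10AT1 and 223, 218 and 222 CPM in MCF10Ca1a, so that the lines did not overlap and MCF10Ca1a lay between the other 2. Relative to MCF10A the log2 change was -1.41 (SE 0.0642, adjusted p 4e-10) in MCF10AT1 and -0.43 (SE 0.0632, adjusted p 2.17e-05) in MCF10Ca1a. From MCF10AT1 to MCF10Ca1a the gene rose, with a log2 change of 0.97 (SE 0.064, adjusted p 5.76e-09). Of the 31-base words in its annotated transcripts, 52.5% also occur in other genes, nearly all in the pseudogene AHCTF1P1 (51.9%), so reads could be divided between them. That pseudogene held 4.70 ± 0.819 CPM (SD, n = 3) in MCF10A, 1.39 ± 0.257 CPM in MCF10AT1 and 3.80 ± 0.193 CPM in MCF10Ca1a, and the sum of both was 303 ± 28.3, 114 ± 2.35 and 225 ± 2.45 CPM (SD, n = 3), in the same order.

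NUP37 (ENSG00000075188.9, chr12:102073103-102120124, minus strand), a peripheral subunit bound to NUP160, went the other way first: it had 62.8, 76.1 and 84.7 CPM in MCF10A, 112, 115 and 118 CPM in MCF10AT1 and 37.7, 38.0 and 41.1 CPM in MCF10Ca1a. The 3 lines did not overlap, with MCF10AT1 highest and MCF10Ca1a lowest. The step from MCF10A to MCF10AT1 was a rise, with a log2 change of 0.63 (SE 0.0841, adjusted p 2.04e-05). The step from MCF10AT1 to MCF10Ca1a, -1.56 (SE 0.0886, adjusted p 1.19e-09), was the largest fall of any member there, and MCF10Ca1a ended -0.94 from MCF10A. SEC13 (ENSG00000157020.18, chr3:10293131-10321178, minus strand), which also serves in the COPII vesicle coat and in the GATOR complex of nutrient sensing, had 105, 106 and 107 CPM in MCF10A, 138, 138 and 127 CPM in MCF10AT1 and 154, 147 and 159 CPM in MCF10Ca1a. Above the MCF10A level it was higher by 0.34 (SE 0.0528, adjusted p 7.82e-05) on the log2 scale in MCF10AT1 (0.21 on log2(TPM + 1)) and by 0.53 (SE 0.0531, adjusted p 4.73e-07) in MCF10Ca1a, with no overlap between lines. SEC13 was the only Y complex gene called higher in MCF10Ca1a than in MCF10A.

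NUP107 and NUP85, core subunits of the Y, were lower in MCF10Ca1a than in MCF10A by similar amounts, at log2 changes of -0.72 and -0.71. NUP107 fell from 119.8 ± 1.86 CPM to 72.5 ± 2.16 CPM (SD, n = 3) and NUP85 from 66.9 ± 1.74 CPM to 40.9 ± 1.54 CPM (SD, n = 3). NUP160, which joins the arms of the Y, was lower in both MCF10AT1 (-0.31) and MCF10Ca1a (-0.24) than in MCF10A. On log2(TPM + 1) the second of these was -0.16 and not called. NUP43, a peripheral subunit, and SEH1L, which like SEC13 also serves in GATOR, differed little between lines, with log2 changes of -0.14 and -0.25 between MCF10Ca1a and MCF10AT1. On log2(TPM + 1) these 2 differences took the other sign, at 0.073 and 0.033, and were not called.

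**Figure D2:**
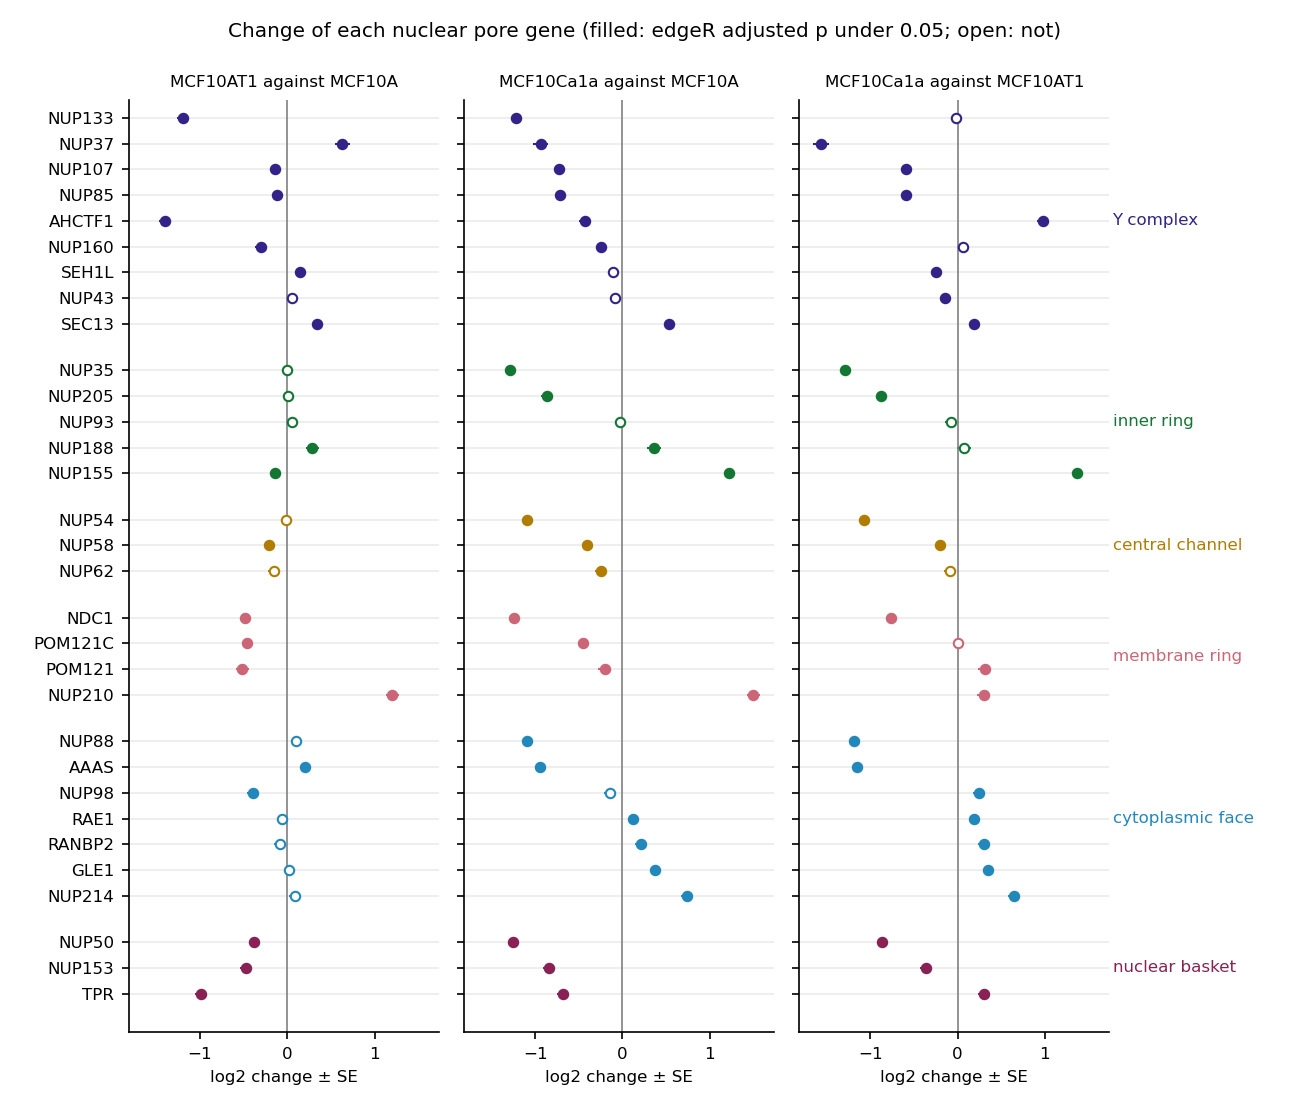
Log2 change of each nuclear pore gene with its standard error in the 3 comparisons, by structural role; filled points passed an edgeR adjusted p of 0.05 and open points did not. The 3 basket genes lie left of 0 in both comparisons with MCF10A, and NUP155 and NUP35 of the inner ring lie at 1.22 and -1.29 in MCF10Ca1a against MCF10A.

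In the inner ring NUP155 and NUP35, which contact each other, moved in opposite directions in MCF10Ca1a. NUP155 (ENSG00000113569.16, chr5:37288137-37371181, minus strand), which links the ring to the membrane and to other scaffold parts, had 91.6, 85.7 and 79.9 CPM in MCF10A, 79.8, 78.3 and 75.2 CPM in MCF10AT1 and 199.7, 196 and 204 CPM in MCF10Ca1a. Every MCF10Ca1a library lay above every other library, and the log2 change was 1.22 (SE 0.0568, adjusted p 1.08e-10) against MCF10A and 1.36 (SE 0.057, adjusted p 5.27e-11) against MCF10AT1. NUP35 (ENSG00000163002.13, chr2:183117513-183161680, plus strand), a small membrane-binding subunit that contacts NUP155 and NUP93, had 31.3, 32.3 and 33.3 CPM in MCF10A, 32.7, 33.2 and 31.1 CPM in MCF10AT1 and 13, 13.1 and 13.6 CPM in MCF10Ca1a. MCF10A and MCF10AT1 overlapped, with a log2 change of 0.00018 (SE 0.0486, adjusted p 1), whereas MCF10Ca1a lay at 2.44-fold lower than MCF10A, with a log2 change of -1.29 (SE 0.0541, adjusted p 3.63e-11). In TPM the ratio of NUP155 to NUP35 within a library was 0.639, 0.579 and 0.544 in the MCF10A libraries, 0.520, 0.516 and 0.526 in those of MCF10AT1 and 3.58, 3.42 and 3.63 in those of MCF10Ca1a. Such a ratio does not depend on how libraries are scaled, and the pair was chosen after its values were seen.

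The 2 large, related ring subunits NUP205 and NUP188, which take equivalent places beside NUP93, also parted. NUP205 was lower in MCF10Ca1a, with 177 ± 14.3 CPM in MCF10A, 178 ± 8.54 CPM in MCF10AT1 and 97.1 ± 0.973 CPM in MCF10Ca1a (SD, n = 3), and a log2 change of -0.86 (SE 0.0631, adjusted p 1.47e-08) against MCF10A. NUP188 was higher in both MCF10AT1 (log2 change 0.29, SE 0.0752, adjusted p 0.00476) and MCF10Ca1a (log2 change 0.36, SE 0.0757, adjusted p 0.000578) than in MCF10A. The 694 tested genes of chromosome 9, where NUP188 lies, had medians of 0.48 and 0.335 in these comparisons. With the length-scaled and the scaled counts the change of NUP188 was not called in MCF10AT1 (0.19 and 0.19) or in MCF10Ca1a (0.18 and 0.19), and on log2(TPM + 1) it was 0.072 and not called in MCF10AT1. NUP93, the organiser of the ring, had 96.9 ± 6.93, 101 ± 5.83 and 95.2 ± 2.47 CPM (SD, n = 3) in MCF10A, MCF10AT1 and MCF10Ca1a, and its change passed the test in no comparison, with adjusted p from 0.26 to 0.726.

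The central channel is formed by a trimer of NUP62, NUP54 and NUP58, whose repeats make the barrier that transport receptors cross. All 3 were lower in MCF10Ca1a than in MCF10A, beside 41.9% of all genes, but unequally. NUP54 (ENSG00000138750.16, chr4:76114659-76148515, minus strand) had 65.3, 70.3 and 72.3 CPM in MCF10A, 68.3, 71.3 and 65.3 CPM in MCF10AT1 and 32.7, 33.3 and 31.6 CPM in MCF10Ca1a. MCF10A and MCF10AT1 overlapped and every MCF10Ca1a library was lower, with a log2 change of -1.09 (SE 0.0564, adjusted p 3.36e-10) against MCF10A. NUP58 changed by -0.41 and NUP62 by -0.24 in the same comparison. NUP62 was -0.16 and not called on log2(TPM + 1). NUP58 was also lower in MCF10AT1 than in MCF10A (log2 change -0.21, SE 0.0479, adjusted p 0.00206), with -0.42 on log2(TPM + 1), and its fall of -0.20 in MCF10Ca1a against MCF10AT1 turned to a rise of 0.12 on log2(TPM + 1), with a limma adjusted p of 0.0216. Of the words of NUP62, 15.3% occur in other genes.

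In the membrane ring, which holds the pore's transmembrane proteins, NUP210 and NDC1 moved in opposite directions. NUP210 (ENSG00000132182.13, chr3:13316235-13420309, minus strand), known as gp210, had 33.4, 28.4 and 26.2 CPM in MCF10A, 66.3, 64.6 and 71.0 CPM in MCF10AT1 and 86, 80.2 and 82.2 CPM in MCF10Ca1a. The 3 lines did not overlap. This was the largest rise of any member in both comparisons with MCF10A, with a log2 change of 1.20 (SE 0.0766, adjusted p 1.2e-08) in MCF10AT1 and 1.50 (SE 0.0777, adjusted p 3.54e-10) in MCF10Ca1a, and it was higher in MCF10Ca1a than in MCF10AT1 by 0.30 (SE 0.075, adjusted p 0.0023), or 0.50 on log2(TPM + 1). NDC1 (ENSG00000058804.12, chr1:53765460-53838860, minus strand), which is needed for pore insertion into the envelope, had 173, 166 and 161 CPM in MCF10A, 119, 119.5 and 118 CPM in MCF10AT1 and 69.5, 70.5 and 71.4 CPM in MCF10Ca1a. Its lines did not overlap either, and its log2 change was -0.48 (SE 0.0468, adjusted p 8.81e-07) in MCF10AT1 and -1.24 (SE 0.0483, adjusted p 1.76e-11) in MCF10Ca1a against MCF10A. The ratio of NUP210 to NDC1 in TPM was 0.0591 ± 0.00437 in MCF10A, 0.190 ± 0.0180 in MCF10AT1 and 0.344 ± 0.0291 in MCF10Ca1a (SD, n = 3), again a pair chosen after its values were seen.

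POM121 and POM121C are near-identical copies of the remaining membrane nucleoporin, and 39.5% and 44.2% of their words, respectively, occur in the other copy, so the division of reads between them is uncertain. Their summed level was 174 ± 15 CPM in MCF10A, 124 ± 7.42 CPM in MCF10AT1 and 141 ± 4.29 CPM in MCF10Ca1a (SD, n = 3). From MCF10A to MCF10AT1 both fell, with log2 changes of -0.52 (SE 0.0722, adjusted p 3.01e-05) and -0.46 (SE 0.0583, adjusted p 1.14e-05). In MCF10Ca1a against MCF10A the changes were -0.20 and -0.45. The first of these was -0.18 and not called without MCF10Ca1a replicate 2, -0.20 and not called without MCF10Ca1a replicate 3, and -0.070 and not called on log2(TPM + 1).

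The cytoplasmic face was the only role group with more members called higher (4) than lower (2) in MCF10Ca1a against MCF10A, although the count was 3 and 3 with length-scaled or scaled counts or a replicate block and 2 and 3 without the filter. The 85.7% called lay near the 80.9% of all genes, of which 39.0% were higher and 41.9% lower. GLE1 and NUP214, both called higher, lie on chromosome 9, whose tested genes had a median of 0.335 there. NUP214 and NUP88, which bind each other on the cytoplasmic side, moved apart. NUP214 (ENSG00000126883.19, chr9:131125561-131234670, plus strand), a docking site for the export receptor XPO1, had 57.5, 52.5 and 47.1 CPM in MCF10A, 54.9, 53.3 and 59.0 CPM in MCF10AT1 and 87.2, 85.6 and 89.0 CPM in MCF10Ca1a. MCF10A and MCF10AT1 overlapped and MCF10Ca1a lay above both, with log2 changes of 0.74 (SE 0.0683, adjusted p 1.96e-07) and 0.65 (SE 0.0682, adjusted p 8.56e-07). NUP88 (ENSG00000108559.13, chr17:5360963-5420160, minus strand) had 77.5, 79.0 and 79.0 CPM in MCF10A, 85.9, 88.7 and 77.9 CPM in MCF10AT1 and 36.6, 37.0 and 37.1 CPM in MCF10Ca1a. Every MCF10Ca1a library was lower than every other library, with log2 changes of -1.09 (SE 0.0552, adjusted p 2.79e-10) against MCF10A and -1.19 (SE 0.0552, adjusted p 1.51e-10) against MCF10AT1. The TPM ratio of NUP214 to NUP88 was 0.166 ± 0.0130, 0.175 ± 0.0119 and 0.685 ± 0.0187 in MCF10A, MCF10AT1 and MCF10Ca1a (SD, n = 3), for a pair chosen after its values were seen.

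AAAS, which encodes ALADIN, the protein mutated in triple A syndrome, was higher in MCF10AT1 than in MCF10A (0.21) and lower in MCF10Ca1a than in MCF10A (-0.94), with 41.7 ± 2.08, 48.1 ± 0.853 and 21.7 ± 0.901 CPM (SD, n = 3) in the 3 lines. The first of these changes was 0.042 and not called on log2(TPM + 1). GLE1, the activator of the export helicase DDX19, rose from MCF10A to MCF10Ca1a by 0.37 (SE 0.0564, adjusted p 3.6e-05) on the log2 scale. RANBP2, the large SUMO ligase of the cytoplasmic filaments, was higher by 0.21 (SE 0.0686, adjusted p 0.0107). This was 0.13 and not called without MCF10A replicate 3, 0.14 and not called without the filter, and 0.33 on log2(TPM + 0.1), and 33.4% of the words of RANBP2 occur in other genes, mostly its RGPD copies. The sum of RANBP2, RGPD5, RGPD6 and RGPD8 was 182 ± 14.6, 179.7 ± 8.13 and 214 ± 1.02 CPM (SD, n = 3) in MCF10A, MCF10AT1 and MCF10Ca1a. NUP98, a repeat protein found on both faces of the pore, was lower in MCF10AT1 than in MCF10A (log2 change -0.39, SE 0.0698, adjusted p 0.000252; -0.22 with length-scaled or scaled counts), and RAE1, its partner in messenger RNA export, was higher in MCF10Ca1a by 0.12 (SE 0.0494, adjusted p 0.0388). That call of RAE1 was lost in 11 of the 20 alternatives, with values from 0.044 to 0.12 where it was lost and up to 0.26 where it was kept.

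All 3 genes of the nuclear basket were lower in MCF10AT1 and in MCF10Ca1a than in MCF10A, beside 31.8% and 41.9% of all genes. TPR (ENSG00000047410.14, chr1:186311652-186375693, minus strand), which forms the basket filaments, had 298, 264 and 243 CPM in MCF10A, 135, 131 and 139.9 CPM in MCF10AT1 and 171, 171 and 160.1 CPM in MCF10Ca1a. The lines did not overlap, and MCF10AT1 was the lowest. Its log2 change from MCF10A was -0.99 (SE 0.0696, adjusted p 3.28e-08) in MCF10AT1 and -0.68 (SE 0.0695, adjusted p 5.61e-07) in MCF10Ca1a, and between the last 2 lines it was 0.31 (SE 0.0696, adjusted p 0.00109), or 0.59 on log2(TPM + 1). NUP50 (ENSG00000093000.19, chr22:45163841-45188015, plus strand), a cofactor of importin-alpha recycling, had 138, 132 and 126 CPM in MCF10A, 104, 104 and 96.6 CPM in MCF10AT1 and 56.4, 54.5 and 55.6 CPM in MCF10Ca1a. It was lowest in MCF10Ca1a, with log2 changes of -0.38 (SE 0.0523, adjusted p 2.71e-05) in MCF10AT1 and -1.25 (SE 0.0543, adjusted p 5.36e-11) in MCF10Ca1a against MCF10A. NUP153, which anchors the basket, had 119.6 ± 13, 86.2 ± 1.16 and 66.9 ± 1.75 CPM (SD, n = 3), and changed by -0.47 in MCF10AT1 and -0.84 in MCF10Ca1a. The further fall of NUP153 from MCF10AT1 to MCF10Ca1a (-0.36) was -0.12 and not called on log2(TPM + 1).

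Several small differences between MCF10AT1 and MCF10A changed their calls with single libraries left out or under other analyses. NUP85 (-0.12) and NUP155 (-0.14) lost their calls when any library other than MCF10A replicate 3 was left out, with values from -0.14 to -0.088 and from -0.16 to -0.089. NUP107 (-0.14) lost its call without MCF10A replicate 2, MCF10AT1 replicate 1 or 3, or MCF10Ca1a replicate 1 (-0.15 to -0.094), and SEH1L (0.14) without MCF10A replicate 2 or MCF10AT1 replicate 1 or 2 (0.12 to 0.15). SEH1L was also not called with scaled counts, and on log2(TPM + 1) its change was 0.0022. Of the 20 alternatives, 14 called NUP107, 13 SEH1L, 9 NUP85 and 9 NUP155 in this comparison. The changes of NUP107, NUP85 and NUP155 were -0.25, -0.31 and -0.27 on log2(TPM + 1) and were called. In MCF10Ca1a against MCF10AT1, NUP43 (-0.14) lost its call without MCF10AT1 replicate 2 or MCF10Ca1a replicate 1 or 3 (-0.14 to -0.11), and was -0.23 without the filter and -0.22 with length-scaled counts.

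Per length, the levels of the pore genes spanned a 25.9-fold range in MCF10A, 18.2-fold in MCF10AT1 and 8.97-fold in MCF10Ca1a, as the mean TPM of the highest over that of the lowest member. NUP37 was the highest in MCF10A (132 ± 13.7 TPM) and MCF10AT1 (191 ± 2.37 TPM), and SEC13 in MCF10Ca1a (136 ± 4.63 TPM; SD, n = 3 throughout). In MCF10A the next 6, NUP107, NDC1, SEC13, NUP58, NUP133 and SEH1L, lay between 92.9 and 80.4 TPM, and from NDC1 to SEH1L neighbours in that order differed by less than the larger of their SDs. NUP210 was the lowest member in every line, at 5.11 ± 0.833, 10.4 ± 0.689 and 15.1 ± 0.928 TPM in MCF10A, MCF10AT1 and MCF10Ca1a. POM121C, the next lowest in MCF10Ca1a, had 15.7 ± 0.746 TPM, so these 2 did not differ beyond their spread there. NUP155 stood in place 25 in MCF10A and in place 5 in MCF10Ca1a, with 26.6 ± 2.83 TPM in MCF10A and 72.0 ± 0.622 TPM in MCF10Ca1a. AHCTF1 stood at 60.2 ± 7.96 TPM in MCF10A, 20.5 ± 0.67 TPM in MCF10AT1 and 48.5 ± 0.794 TPM in MCF10Ca1a. The median member had 45.3, 33.8 and 35.8 TPM in the 3 lines.

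The 3 members with the largest falls in MCF10AT1 against MCF10A, AHCTF1, NUP133 and TPR, all lie on the long arm of chromosome 1, and genes around them were lower as well. Tested genes within 2 Mb had a median log2 change of -1.06 around AHCTF1 (25 genes, 22 called lower), -1.03 around NUP133 (37 genes, 34 lower) and -0.65 around TPR (14 genes, 12 lower). Beyond 125 Mb on chromosome 1, 803 tested genes had a median of -0.70 and 68.5% were called lower, whereas the 972 genes before that point, NDC1 among them, had a median of 0.00056 and 30.8% lower. The importin gene IPO9, also beyond 125 Mb, had 331, 292 and 272 CPM in MCF10A, 114, 109 and 109 CPM in MCF10AT1 and 109, 107 and 107 CPM in MCF10Ca1a, a log2 change of -1.43 (SE 0.0664, adjusted p 4.8e-10) in MCF10AT1 against MCF10A. The mRNA export gene CHTOP on the same arm changed by -0.29 (SE 0.0516, adjusted p 0.000252). In MCF10Ca1a against MCF10A the arm had a median of -0.30 with 50.9% lower, and in MCF10Ca1a against MCF10AT1 a median of 0.37 with 225 of the 803 genes lower. The genes before 125 Mb had medians of 0.22 (30.6% lower) and 0.28 (30.8% lower) in these 2 comparisons, so in the last of them both sides of the chromosome had medians above 0. There AHCTF1 and TPR were higher and NUP133 was not called. DNA copy number was not measured in these files, and its part was not tested. Without these 3 members the median change of the others was -0.24 in MCF10Ca1a against MCF10A.

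Elsewhere some members differed from their neighbours and others did not. In MCF10Ca1a against MCF10A NUP153 (-0.84, neighbours -0.77), POM121 (-0.20, neighbours -0.21) and NUP98 (-0.14, neighbours -0.12) lay close to theirs. NUP210 changed by 1.50 in MCF10Ca1a against MCF10A, while its 29 neighbours had a median of -0.089. NUP35 (-1.29, neighbours 0.0058) and NDC1 (-1.24, neighbours -0.039) likewise stood apart from their surroundings. Around NUP155 the 20 neighbours had a median of 0.51 in MCF10Ca1a against MCF10A and 0.025 against MCF10AT1. GLE1, NUP188 and NUP214 lie within a few megabases on chromosome 9, where the medians of their neighbours were 0.45, 0.45 and 0.47 in MCF10Ca1a against MCF10A. The windows around these 3 genes overlap. Chromosome 9 as a whole, with 694 tested genes, had a median of 0.335 in MCF10Ca1a against MCF10A and 0.48 in MCF10AT1 against MCF10A. In the latter NUP188 changed by 0.29, beside a neighbour median of 0.33. The part of the chromosome in the rises of its members was not tested. Over the 31 members, Pearson's r between a member's change and its neighbours' median was 0.61 in MCF10AT1 against MCF10A, 0.47 in MCF10Ca1a against MCF10A and 0.44 in MCF10Ca1a against MCF10AT1. Without the 3 members on chromosome 1 named above it was 0.060, 0.44 and 0.40 over 28 members. All points share the same libraries, and the window was set after the values were seen.

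**Figure D3:**
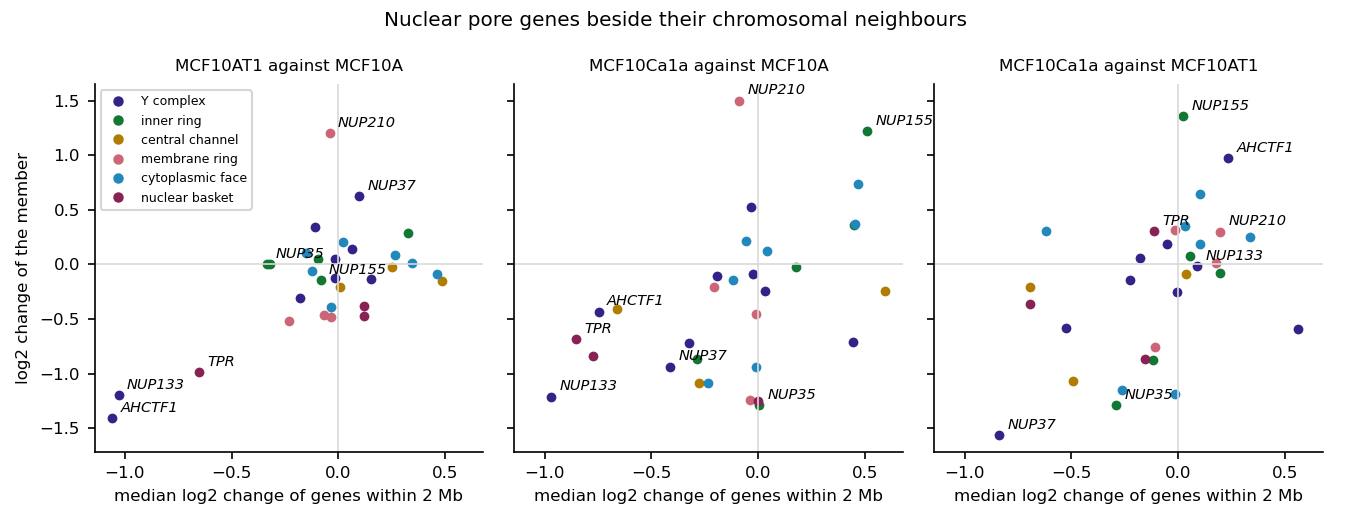
Log2 change of each nuclear pore gene (y axis) against the median log2 change of the tested genes within 2 Mb (x axis), in the 3 comparisons, coloured by role. AHCTF1, NUP133 and TPR lie at the lower left in MCF10AT1 against MCF10A, at -1.41, -1.20 and -0.99, whereas NUP210 is at 1.20 beside a neighbour median of -0.040.

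Transcript usage, the share of a gene's estimated counts given to each of its transcripts, was tested in 21 members with 2 or more transcripts kept. It differed in 5 of them (23.8%) between MCF10AT1 and MCF10A, in 12 (57.1%) between MCF10Ca1a and MCF10A and in 11 (52.4%) between MCF10Ca1a and MCF10AT1 (limma on log2 ratios, adjusted Simes p under 0.05). Among all 9447 genes tested the shares were 11.6%, 50.3% and 43.5%. In MCF10AT1 against MCF10A the count was 2 without MCF10AT1 replicate 1 and 3 without MCF10AT1 replicate 2 or 3, MCF10A replicate 1 or 3, or MCF10Ca1a replicate 1. GLE1 and NUP50 had the smallest p among the members in every comparison.

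GLE1-201 (ENST00000309971.9) took 48.8%, 48.9% and 52.1% of the counts of GLE1 in the MCF10A libraries, 74.4%, 75.5% and 74.7% in those of MCF10AT1 and 85.9%, 85.4% and 85.9% in those of MCF10Ca1a. A second transcript, ENST00000683288.1, took 41.7%, 39.9% and 39.2%, then 11.5%, 9.63% and 9.98%, and then 3.19%, 3.31% and 2.98%. The lines did not overlap for either transcript. The adjusted Simes p of limma's test was 4.06e-05 in MCF10AT1 against MCF10A, 6.09e-07 in MCF10Ca1a against MCF10A and 7.63e-05 in MCF10Ca1a against MCF10AT1. The second transcript is not in GENCODE 29, so its structure is not described here. The gene-level log2 change of GLE1 from MCF10A to MCF10AT1 was 0.017 (SE 0.0559, adjusted p 0.81).

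NUP50-201 (ENST00000347635.9, 5233 bases), the main NUP50 transcript, took 95.2% ± 0.502 of counts in MCF10A, 93.9% ± 1.03 in MCF10AT1 and 80.0% ± 1.62 in MCF10Ca1a (SD, n = 3). The shorter NUP50-202 (ENST00000396096.6, 1895 bases) took 0.616%, 0.611% and 0.858% in the MCF10A libraries, 2.12%, 2.96% and 3.60% in those of MCF10AT1 and 11.8%, 12.5% and 11.3% in those of MCF10Ca1a. Its estimated counts rose from 52 to 75 in MCF10A libraries to 223 to 237 in MCF10Ca1a libraries, although NUP50 as a gene fell. The adjusted Simes p was 0.00363, 2.08e-05 and 0.000282 in the 3 comparisons in the order above. These shares are estimates of how reads divide between overlapping transcripts, and the uncertainty of that division was not used.

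**Figure D4:**
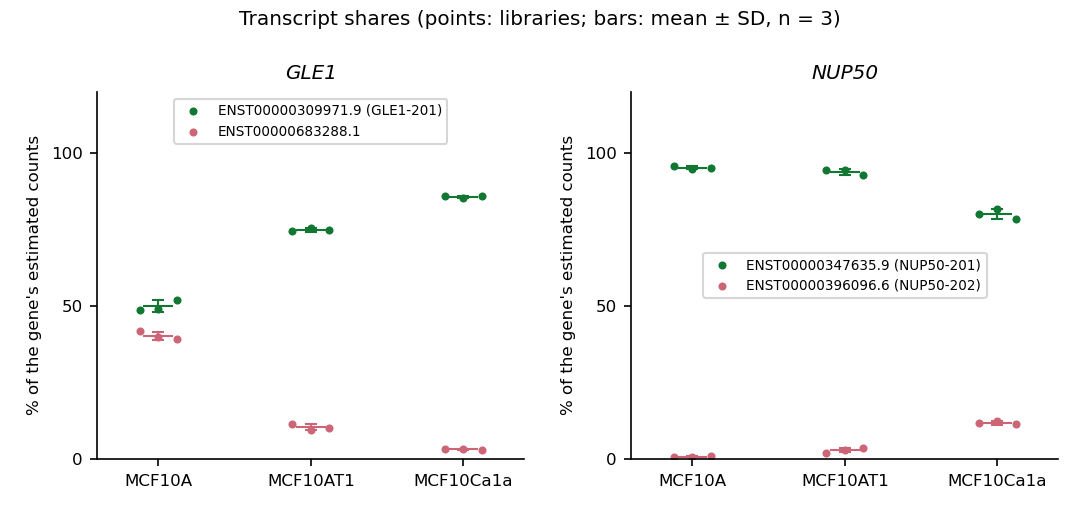
Share of the estimated counts of GLE1 (left) and NUP50 (right) given to the 2 transcripts tested, in percent, with each library as a point and the mean ± SD (n = 3) as a bar. ENST00000683288.1 of GLE1 lies near 40.3% in MCF10A and 3.16% in MCF10Ca1a, and NUP50-202 lies near 0.695% and 11.8%.

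The soluble transport machinery that uses the pore was read from lists of related genes. The Ran cycle, which gives transport its direction, was lower in MCF10Ca1a: 6 of 7 genes were called lower and 1 higher against MCF10A, with a median log2 change of -1.28, and 6 lower and 0 higher against MCF10AT1, with a median of -0.92. Of all genes 41.9% and 40.3% were lower in these comparisons. On log2(TPM + 1) the second count was 4 lower and 1 higher. RAN, the GTPase itself, had 859, 920.2 and 972 CPM in MCF10A, 929, 936 and 900 CPM in MCF10AT1 and 349, 354 and 365 CPM in MCF10Ca1a, and its log2 change was -1.37 (SE 0.06, adjusted p 8.12e-11) in MCF10Ca1a against MCF10AT1. RANGAP1, its activating protein, which docks on RANBP2, had 282, 240.4 and 231 CPM in MCF10A, 145, 142 and 143 CPM in MCF10AT1 and 73.1, 72.4 and 74.3 CPM in MCF10Ca1a. The lines did not overlap, and the log2 change was -0.81 (SE 0.0674, adjusted p 1.81e-07) in MCF10AT1 and -1.78 (SE 0.0701, adjusted p 1.98e-11) in MCF10Ca1a against MCF10A. The gene called higher was NUTF2, the carrier that returns Ran to the nucleus, by 0.14 (SE 0.051, adjusted p 0.0231), a call lost without any of 6 libraries (0.096 to 0.13) and without the filter (0.063), and 0.31 on log2(TPM + 1). Those were MCF10A replicates 1 and 2, MCF10AT1 replicates 1 and 2, and MCF10Ca1a replicates 1 and 3. In MCF10AT1 against MCF10A 3 of the 7 were lower and 0 higher (42.9% called, under the 61.6% of all genes).

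More exportins, the receptors for outward cargo, were called higher than lower in MCF10Ca1a. In MCF10Ca1a against MCF10AT1 5 of 7 were higher and 0 lower, with a median of 0.34, and in MCF10Ca1a against MCF10A 4 were higher and 2 lower. Of all genes 38.0% and 39.0% were higher in these comparisons. The second count was 5 and 0 on log2(TPM + 1), where 55.0% of all calls were higher. The largest rise was that of XPO5, the exportin of precursor microRNAs, by 0.58 (SE 0.0675, adjusted p 2.48e-06) (0.88 on log2(TPM + 1)), in the first of these, and that of XPO7 by 0.47 (SE 0.0602, adjusted p 5.91e-06) in the second, where XPO1, the main exportin of proteins with leucine-rich export signals, fell most (log2 change -0.26, SE 0.0544, adjusted p 0.000531). The fall of XPO1 was -0.12 and not called on log2(TPM + 1). XPO6, the exportin of actin, fell most in MCF10AT1 against MCF10A (log2 change -0.38, SE 0.0633, adjusted p 0.00014).

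Of 18 importins, 6 were higher and 10 lower in MCF10Ca1a against MCF10A, with a median of -0.33. The share called, 88.9%, lay near the 80.9% of all genes. KPNA2, an importin-alpha, had 760.5, 707 and 673 CPM in MCF10A, 446, 440.5 and 398 CPM in MCF10AT1 and 172, 172 and 182 CPM in MCF10Ca1a, with every line apart and a log2 change of -2.02 (SE 0.0668, adjusted p 3.27e-12). IPO13 was the importin with the largest rise there, by 1.28 (SE 0.0588, adjusted p 9.67e-11), and IPO8 the one with the largest fall in MCF10Ca1a against MCF10AT1 (log2 change -1.61, SE 0.0594, adjusted p 1.51e-11). KPNA3 was the largest rise in MCF10AT1 against MCF10A, by 0.35 (SE 0.0525, adjusted p 6.41e-05), or 0.20 on log2(TPM + 1). KPNA7 had the largest fall there (-2.42) and the largest rise in MCF10Ca1a against MCF10AT1 (3.43), on only 19, 22 and 21 counts in the MCF10A libraries, 5, 4 and 2 in those of MCF10AT1 and 21, 19 and 26 in those of MCF10Ca1a. These 2 changes of KPNA7 were -0.24 and 0.52 on log2(TPM + 1).

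Of 24 genes of mRNA export, 7 were higher and 12 lower in MCF10Ca1a against MCF10A, with a median of -0.12 (9 and 9, and 0.044, on log2(TPM + 1)). The 79.2% called lay near the 80.9% of all genes. DDX19B, the helicase that GLE1 activates at the pore, had 22.2, 23.9 and 21.3 CPM in MCF10A, 19.3, 19.2 and 18.0 CPM in MCF10AT1 and 68.4, 62.9 and 66.0 CPM in MCF10Ca1a, a log2 change of 1.55 (SE 0.0582, adjusted p 1.22e-11). MCF10Ca1a lay above all other libraries. THOC7, a subunit of the THO complex that loads export factors on transcripts, had 79.4, 92.7 and 109 CPM in MCF10A, 112, 114 and 121 CPM in MCF10AT1 and 22.3, 24.4 and 25.1 CPM in MCF10Ca1a, with a log2 change of -1.97 (SE 0.0981, adjusted p 2.29e-10) in MCF10Ca1a against MCF10A. In MCF10AT1 against MCF10A the list had 7 higher and 9 lower, led by the cap-binding gene NCBP1 (log2 change 0.71, SE 0.0521, adjusted p 5.05e-08) and by THOC6 of the THO complex (log2 change -0.81, SE 0.0667, adjusted p 1.68e-07). The 66.7% called there lay near the 61.6% of all genes. Of 4 further pore genes, NUP210L was at or under 3 counts in every library. The other 3, NUP42, ZC3HC1 and NUP62CL, were all lower in MCF10Ca1a than in MCF10A, NUP42, which helps GLE1 at the cytoplasmic face, most (log2 change -1.19, SE 0.0647, adjusted p 6.17e-10). In MCF10AT1 against MCF10A ZC3HC1, a basket protein, was lower (log2 change -0.56, SE 0.0656, adjusted p 5.72e-06) and NUP62CL higher (log2 change 0.46, SE 0.104, adjusted p 0.00169), and NUP62CL was lower in MCF10Ca1a than in MCF10AT1 (log2 change -0.99, SE 0.113, adjusted p 2.04e-06).

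Genes of the dividing cell were lower in MCF10Ca1a than in either other line. Of 21 proliferation genes, 15 were lower and 1 higher in MCF10AT1 against MCF10A, and all 21 were lower in MCF10Ca1a against either other line, with medians of -0.39, -2.23 and -1.93 in the 3 comparisons. The shares of all genes called lower were 31.8%, 41.9% and 40.3%. The summed level of the 21 genes ran from 3059 to 3296 TPM in MCF10A, 2333 to 2483 TPM in MCF10AT1 and 811 to 820.2 TPM in MCF10Ca1a. The part of this difference in the levels of the pore genes was not tested.

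**Figure D5:**
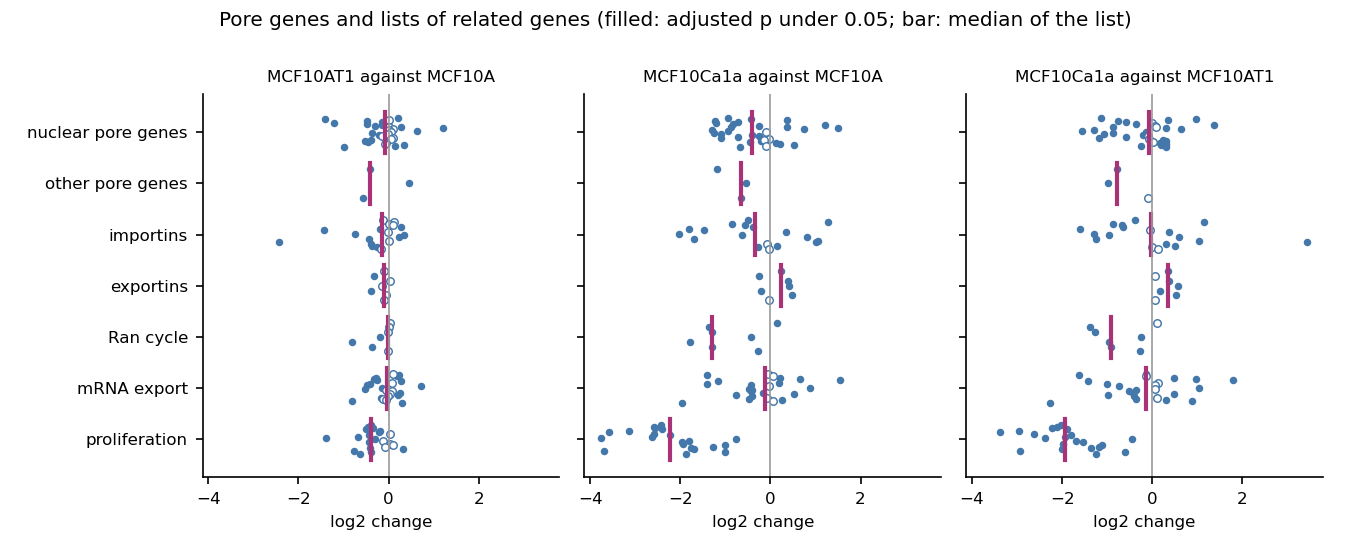
Log2 change of each gene of the nuclear pore list, of 5 lists of related transport genes and of the proliferation list, in the 3 comparisons; filled points passed an edgeR adjusted p of 0.05, and bars are list medians. In MCF10Ca1a against MCF10A the medians are -0.41 for the pore genes, -1.28 for the Ran cycle, 0.24 for exportins and -2.23 for proliferation genes.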

How the data were processed

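Polyadenylated RNA was sequenced from 3 libraries of each of 3 lines with a stranded Illumina kit, per the labels. The authors deposited 6 tables. Gene and transcript estimated counts and TPM were made with Salmon on hg38, per the submitters' processing notes; versions and the annotation release are not given in the sources used here. The length-scaled and scaled gene tables deposited by the authors are also estimated counts.

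Estimated counts were rounded and filtered with filterByExpr (minimum count 10, minimum total 15), which left 17910 of 62666 genes. All 9 libraries were fitted together with edgeR 4.0.16 (TMM, quasi-likelihood test; R 4.3.3), with p-values adjusted by Benjamini-Hochberg across the genes kept and calls at 0.05. All adjusted p-values are from this fit unless limma is named. SE is the log2 change over the square root of F. CPM uses TMM-scaled totals. Transcripts with a mean of 10 counts and 5% of their gene in some line entered limma 3.58.1 on log2((transcript + 0.5)/(rest + 0.5)). Positions come from GENCODE 29 on GRCh38 through unversioned identifiers, which matched 92.9% of genes. Shared words are 31-base words of GENCODE 29 transcripts. The tests were tested on simulated data. Alternatives were DESeq2 1.42.0 and its size factors, no filter, length-scaled or scaled counts, a replicate block, thinning, pairwise fits, limma on log2 TPM and each library left out.

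The members, lists and rules were chosen with earlier results of these data known. All 31 members may be named. Libraries are given singly for the member with the largest absolute change of each role in MCF10Ca1a against MCF10A and for the 3 largest called rises and falls of each comparison. Of each pathway list the largest called rise and fall are named, and of transcript usage the 2 smallest p; IPO9 and CHTOP were named after their values were seen, for their position.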

Additional observations from a re-analysis of the deposited data

How the results depend on the processing

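Each count and median was recomputed under 11 other analyses and with each of the 9 libraries left out. The medians over the 31 members kept their sign except in MCF10Ca1a against MCF10AT1, where the median was 0.211 on log2(TPM + 1), with or without the filter, and 0.224 on log2(TPM + 0.1). That of the mRNA export list did not keep its sign in MCF10Ca1a against MCF10A, as given above. On log2(TPM + 1) with and without the filter and on log2(TPM + 0.1), members called higher in MCF10AT1 against MCF10A were 3 each time, with medians of -0.199, -0.199 and -0.203, and in MCF10Ca1a against MCF10A the medians were -0.292, -0.292 and -0.296, with 5 members at 2-fold or more each time. In MCF10Ca1a against MCF10A the median was -0.482 without the filter, -0.462 with length-scaled counts, -0.454 with scaled counts and -0.359 after thinning to the smallest library, and in MCF10Ca1a against MCF10AT1 it was -0.167 without the filter. Chosen after seeing the data, leaving out AHCTF1, NUP133 and TPR gave a median of -0.243 in MCF10Ca1a against MCF10A and 1 member at 2-fold or more in MCF10AT1 against MCF10A, and leaving out AHCTF1, POM121, POM121C and RANBP2 gave a median of -0.021 in MCF10AT1 against MCF10A. These last values cover other sets of members, and the cause of the remaining differences was not tested.

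With single libraries left out, members called higher ranged from 5 to 7, 7 to 8 and 11 to 11 in the 3 comparisons (MCF10AT1 against MCF10A, MCF10Ca1a against MCF10A, MCF10Ca1a against MCF10AT1), members called lower from 11 to 16, 18 to 20 and 13 to 15, members at 2-fold or more from 3 to 4, 8 to 9 and 6 to 6, medians from -0.132 to -0.072, -0.431 to -0.377 and -0.117 to -0.061, and members called in usage from 2 to 4, 9 to 12 and 9 to 12. Same-numbered libraries did not deviate together (r from -0.06 to 0.045), so the numbers were not taken as pairs. With the replicate block 2 members were called in usage in MCF10AT1 against MCF10A, and in MCF10Ca1a against MCF10A the call of RAE1 was lost (adjusted p 0.0553) and NUP98 was called (0.0413), while no other member or pathway gene named here changed its call. Of the called members, 14 of 20, 21 of 27 and 19 of 25 were called under all 20 alternatives. In MCF10Ca1a against MCF10AT1, log2(TPM + 1) and log2(TPM + 0.1) gave 0.412 and 0.424 for NUP133, and, with the former value also without the filter, 0.073 and 0.075 for NUP43, 0.125 and 0.127 for NUP58 and 0.033 and 0.033 for SEH1L. Summing transcript TPM left the median levels at 45.33, 33.8 and 35.79 TPM. MCF10Ca1a libraries had the lowest depth, and the effect of depth on transcript shares was not tested.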
